A study of Mus musculus with 3 samples.

Results

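Club and secretory airway cells were taken from 3 single-cell libraries of irradiated mouse lung, and 364 of the 19622 cells met the rule for them. A cell was selected on measured values of these same libraries: Scgb1a1 above 0, at least 1 of the 6 genes Scgb3a1, Scgb3a2, Cyp2f2, Cbr2, Muc5b and Bpifa1 above 0, fewer than 4 of the 5 ciliated genes Foxj1, Ccdc153, Tmem212, Dynlrb2 and Rsph1 above 0, and Ptprc, Pecam1 and Col1a1 at 0. The genes of this rule are therefore described and not tested. The libraries came from female C57BL/6J mice, 1 mouse per condition, whose lungs were collected 5 months after bilateral irradiation of the thorax with 13 Gy. The methods give C57BL/6J mice as 8 to 9 weeks old unless stated otherwise, and no other age is given for the thorax irradiation. The CONV mouse received the dose at a conventional rate, the FLASH mouse received it at an ultra-high rate, and the CONV AsiDNA mouse received conventional irradiation together with AsiDNA. AsiDNA is a short double-stranded oligonucleotide coupled to cholesterol that imitates a DNA double-strand break and occupies the enzymes that sense such breaks, and it was injected at 100 mg/kg on each of 2 days and at 200 mg/kg on the day of irradiation. All 3 mice were wild type and all were irradiated, and control libraries were not analysed here. The comparisons ask how these airway cells differed between the modalities late after irradiation. With 1 mouse per condition no test was possible, so a difference between libraries has no replicate check and cannot be told apart from a difference between mice, preparations or cell capture.

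Club cells are the dome-shaped secretory cells of the bronchioles. They secrete secretoglobins, small proteins of the airway lining fluid, together with surfactant proteins and antimicrobial proteins, they carry cytochrome P450 and conjugating enzymes that convert inhaled and circulating compounds, and they divide to restore club and ciliated cells after injury. Secretory cells of the larger airways add mucins and proteins of mucosal defence. The antioxidant and detoxifying enzymes of the airway are largely under the transcription factor Nrf2, encoded by Nfe2l2, which is held inactive by Keap1 and binds a short DNA motif beside its target genes when it is released.

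The rule gave 93 of 6372 cells in CONV, which was 1.46% (exact Clopper-Pearson 95% interval 1.18 to 1.79). It gave 173 of 6983 cells in CONV AsiDNA, which was 2.48% (2.13 to 2.87), and 98 of 6267 cells in FLASH, which was 1.56% (1.27 to 1.90). These intervals cover the sampling of cells only, and no spread between mice was measured. The interval of CONV AsiDNA lay above those of CONV and FLASH. With cells that hold a lineage gene kept, the shares of CONV AsiDNA and FLASH were 2.49% (2.14 to 2.88) and 2.14% (1.79 to 2.53), and these intervals overlapped. Whole-lung dissociation also sets how many airway cells enter a suspension, and its part in these shares was not tested. Among cells with Epcam, an epithelial adhesion molecule, above 0 and without the 3 excluded lineage genes, the cells of the rule made up 8.60% (6.53 to 11.1) for CONV, 13.1% (10.7 to 15.7) for CONV AsiDNA and 8.10% (6.07 to 10.5) for FLASH, where the intervals of CONV and CONV AsiDNA overlapped.

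The cells were described by markers of cell types. Levels are given as CPM, the adjusted counts of a gene per 1000000 adjusted counts of the summed cells. Of 15 club and secretory markers, 14 or 15 were above 0 in at least 10% of the cells of each library, and their summed level was 660153 CPM for CONV, 708851 CPM for CONV AsiDNA and 667879 CPM for FLASH. Most of these sums was Scgb1a1 (587448, 634026 and 595035 CPM), by which the cells were chosen, so they are no separate check of identity. Ptprc, Pecam1 and Col1a1 were at 0 by the rule, which also bears on the immune, endothelial and fibroblast markers. Erythroid, fibroblast and hillock markers were at 0 in all 3 libraries, and the immune markers were at 0 in CONV and CONV AsiDNA and summed to 56.9 CPM in FLASH. Mesothelial markers summed to 149, 98.8 and 0 CPM, neuroendocrine markers to 6.11, 2.22 and 102 CPM and endothelial markers to 38.7, 57.7 and 28.5 CPM. In each library 1 of the 10 endothelial markers was above 0 in at least 10% of cells. Ionocyte markers summed to 118, 97.7 and 83.4 CPM and tuft cell markers to 20.4, 4.44 and 2.03 CPM. Of 13 alveolar type 2 markers, Sftpc, Lamp3, Slc34a2 and Napsa were listed at 0 in every cell. Sftpa1, Sftpb and Sftpd, which airway secretory cells also make, and Chil1, Cxcl15 and Abca3 were above 0 in at least 10% of the cells of each library, and the list summed to 5906, 7106 and 5110 CPM. Of 10 alveolar type 1 markers, 3 reached this share (Hopx, Aqp5 and Clic5), the list summed to 556, 567 and 368 CPM, and Ager was above 0 in 5.38%, 2.31% and 0% of cells. The 9 basal cell markers summed to 132 CPM in CONV, 53.3 CPM in CONV AsiDNA and 4.07 CPM in FLASH, and 2, 6 and 7 of them were at 0. Most of the CONV sum was Icam1 (93.7 CPM), the only one above 0 in at least 10% of cells, and Krt5 was above 0 in 1 CONV cell. The goblet markers, which include Muc5b, summed to 2051 CPM in CONV, 1811 CPM in CONV AsiDNA and 1875 CPM in FLASH. In endothelial and B cells, which should lack airway genes, the share above 0 was 0% for Scgb1a1, Scgb3a1, Scgb3a2, Muc5b, Bpifa1, Bpifb1, Reg3g and Retnla in every library, at median totals of 3868 to 3958 counts per endothelial cell and 2873 to 3092 counts per B cell. Cyp2f2 and Cbr2 were above 0 in 0.101% of the CONV AsiDNA B cells and in no other cell of these classes.

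A group of 14 FLASH cells stood apart from the others. Each had fewer than 3000 counts in total, with a median of 2061, whereas no CONV cell was below 3387 and no CONV AsiDNA cell was below 3314. Scgb1a1 made up 16.1% of the counts of these 14 cells and 62.2% of the counts of the other 84 FLASH cells. All 13 ciliated markers were above 0 somewhere in the 14 cells and summed to 7443 CPM, against 290 CPM in the other FLASH cells, 316 CPM in CONV and 483 CPM in CONV AsiDNA. Gm42418, a gene that overlaps a ribosomal RNA repeat, was above 0 in all 14 and in 0 of the other 84, and in 15 of the CONV and 74 of the CONV AsiDNA cells. The immune-cell and alveolar gene Lyz2 was above 0 in 7 of the 14. A further 36 FLASH cells, 2 CONV cells and 1 CONV AsiDNA cell met the rest of the rule but were left out for a lineage gene. Among the 36, Ptprc was above 0 in 35, Lyz2 in 34 and Tmem212 in 19, and their median total was 1737 counts. Counts of list members against FLASH are also given without the 14 cells where these change the count.

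At the limit on ciliated genes, the cells just inside had 3 of the 5 genes above 0. These were 1 CONV AsiDNA cell with a Scgb1a1 count of 2917 and 9 FLASH cells with a median Scgb1a1 count of 264 and a median total of 2003. The cells just outside had 4 of the 5 genes above 0 and were 1 CONV AsiDNA cell with a Scgb1a1 count of 3241 and 12 FLASH cells with a median Scgb1a1 count of 399 and a median total of 2186. None of the 5 ciliated genes was above 0 in all 93 CONV cells, in 172 of the CONV AsiDNA cells and in 83 of the FLASH cells. The 3 libraries shared between 9 and 17 barcodes in each pair, none of them among the cells of the rule.

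Median totals were alike, at 5498 counts per CONV cell, 5315 per CONV AsiDNA cell and 5441 per FLASH cell, and the summed counts were 491051, 901103 and 491773. Of these counts, Scgb1a1 took 58.7% (CONV), 63.4% (CONV AsiDNA) and 59.5% (FLASH). All other genes were thus measured in the remaining counts, and a shift in Scgb1a1 moves the CPM of every other gene. Within single cells the Scgb1a1 share ran from 0.845% to 89.4% for CONV, from 1.65% to 91.3% for CONV AsiDNA and from 2.04% to 86.6% for FLASH, with medians of 62.9%, 66.3% and 62.0%. Mitochondrial genes took 1.38%, 1.83% and 2.35% of the counts in CONV, CONV AsiDNA and FLASH.

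**Figure D1:**
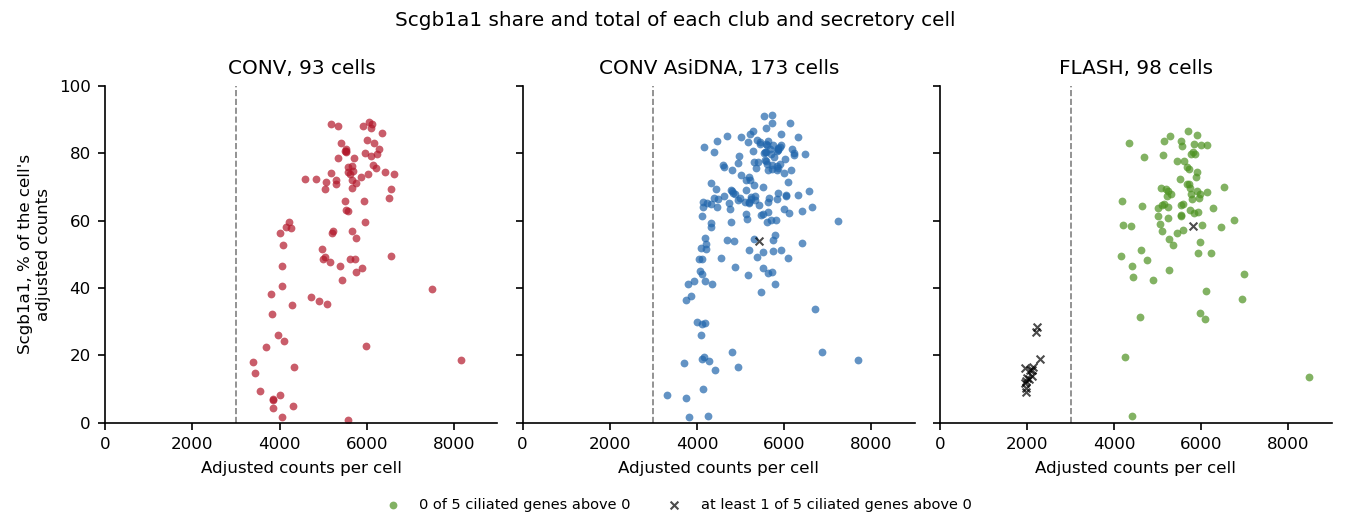
Each point is 1 club or secretory cell, with its total of adjusted counts on the x axis and the percentage of that total taken by Scgb1a1 on the y axis, in 1 panel per library. Crosses mark cells with at least 1 of the 5 ciliated genes above 0, the dashed line marks 3000 counts, and the 14 FLASH cells to its left stand apart from the cloud that the libraries share.

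Scgb1a1 (chr19:9083636-9087958, minus strand, GRCm38), which encodes the main secretoglobin of club cells, was the most abundant gene at 587448 CPM in CONV, 634026 CPM in CONV AsiDNA and 595035 CPM in FLASH. Without the 14 cells of low total the FLASH level was 622276 CPM. The median cell held 3489, 3487 and 3371 counts of it. The levels of the 3 libraries lay within 0.11 of each other on the log2 scale, which is computed here on CPM plus 10 throughout and therefore understates differences of genes with low levels.

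Scgb3a2 (chr18:43764289-43767399, plus strand), a secretoglobin of the bronchioles, was next by the mean of the 3 libraries, at 19957 CPM in CONV, 23193 CPM in CONV AsiDNA and 28009 CPM in FLASH. In CONV the nuclear RNA Malat1 was above it, at 35408 CPM. It was above 0 in 71 of 93, 154 of 173 and 78 of 98 cells, and in 76.3%, 86.1% and 79.6% of cells after each cell was thinned to 1000 counts. Cyp2f2 (chr7:27119909-27133660, plus strand), the cytochrome P450 that marks club cells and activates naphthalene, was at 7411, 9934 and 10104 CPM. Cbr2, a carbonyl reductase of club cells, was at 8952, 9274 and 9742 CPM. These club cell genes thus differed by less than 2-fold between any pair of libraries, and each of Cyp2f2 and Cbr2 was above 0 in at least 96.8% of the cells of every library.

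Scgb3a1 (chr11:49663610-49665118, plus strand), a secretoglobin of mucous and larger-airway secretory cells, was 19137 CPM in CONV, 12888 CPM in CONV AsiDNA and 9319 CPM in FLASH. It was confined to a minority of cells, with 27 of 93 cells in CONV (29.0%, interval 20.1 to 39.4), 36 of 173 in CONV AsiDNA (20.8%, 15.02 to 27.6) and 17 of 98 in FLASH (17.3%, 10.4 to 26.3). The 10 cells with the most Scgb3a1 held 87.8%, 69.5% and 94.1% of its counts, so its level in a library rests on few cells. Scgb1c1, a further secretoglobin, ran the opposite way at 204, 363 and 663 CPM, and it was above 0 in 41, 94 and 62 cells. Muc5b, the gel-forming mucin of the airways, was at 1081, 841 and 736 CPM and above 0 in 51.6% (41.01 to 62.1), 32.4% (25.5 to 39.9) and 21.4% (13.8 to 30.9) of cells. After thinning to 1000 counts these Muc5b shares were 31.2%, 24.3% and 16.3%.

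The cells with Scgb3a1 carried other genes of mucosal secretion more often than the cells without it, in each of the 3 libraries. The split uses a gene of the same cells, and Muc5b, Bpifa1 and Scgb3a2 are, like Scgb3a1, genes by which the cells were selected, so the counts are a description. All 14 FLASH cells of low total had Scgb3a1 at 0 and lie in the group without it. The cell with the highest total of each library (8155, 7695 and 8462 counts) had Scgb3a1. Shares above 0 depend on the total, and shares after thinning are not given for this split. Muc5b was above 0 in 24 of 27 cells with Scgb3a1 and in 24 of 66 cells without it in CONV, in 34 of 36 and 22 of 137 in CONV AsiDNA, and in 15 of 17 and 6 of 81 in FLASH. Bpifa1, an antibacterial protein of the upper airway lining fluid, was above 0 in 8 of 27 and 0 of 66 cells in CONV, 19 of 36 and 1 of 137 in CONV AsiDNA, and 7 of 17 and 0 of 81 in FLASH. Its relative Bpifb1 was above 0 in 63.0%, 77.8% and 82.4% of the cells with Scgb3a1 and in 3.03%, 2.92% and 2.47% of those without. Reg3g, a bactericidal lectin, was above 0 in 12, 18 and 12 cells with Scgb3a1 and in 1, 0 and 1 cells without it. Tff2, a trefoil peptide of mucus, was above 0 in 70.4%, 83.3% and 88.2% of the cells with Scgb3a1 and in 16.7%, 3.65% and 4.94% of those without. Agr2, which folds mucins, and Muc5ac, the mucin of goblet cells, were above 0 in 9 and 10 of the 27 CONV cells with Scgb3a1 and in 1 and 5 of the 66 without.

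Sftpb, the surfactant protein B gene, ran the other way across this split. It was above 0 in 15 of 27 cells with Scgb3a1 against 61 of 66 without it in CONV, in 15 of 36 against 132 of 137 in CONV AsiDNA, and in 5 of 17 against 53 of 81 in FLASH. Sftpa1 did not share this direction, at 59.3%, 58.3% and 64.7% of the cells with Scgb3a1 against 48.5%, 56.9% and 37.0% of those without, and Sftpd was at 70.4%, 69.4% and 41.2% against 71.2%, 75.9% and 63.0%. Scgb3a2 was also higher where Scgb3a1 was present, at 38862 against 11553 CPM in CONV, 56353 against 13366 CPM in CONV AsiDNA and 76429 against 15195 CPM in FLASH. In each library most of the cells with Bpifb1 or Tff2 thus lay in the smaller group with Scgb3a1, and Sftpb was more frequent in the larger group.

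**Figure D2:**
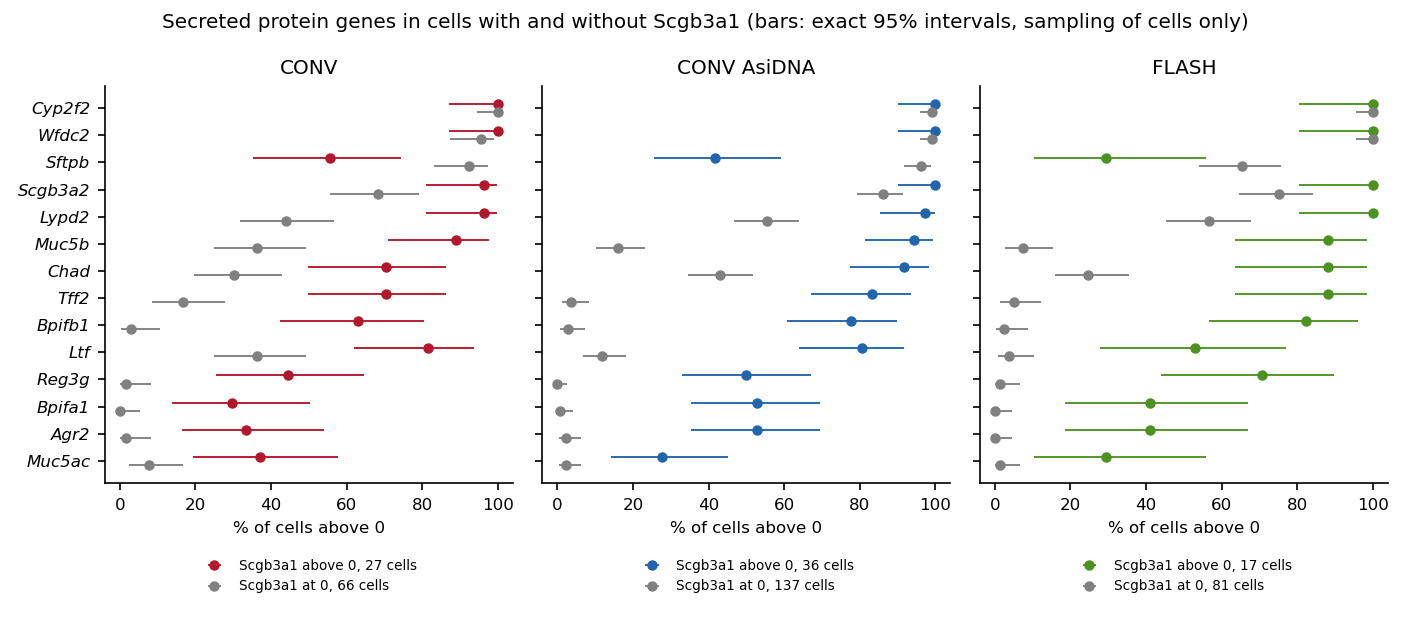
The percentage of cells above 0 is shown for 14 genes in club and secretory cells with Scgb3a1 above 0 (coloured) and at 0 (grey), in 1 panel per library, with exact 95% intervals for the sampling of cells. Muc5b, Tff2, Bpifb1, Ltf and Reg3g lie to the right in the cells with Scgb3a1 in all 3 libraries, and Sftpb lies to the left.

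Against alveolar type 2 cells (289, 326 and 381 cells) and ciliated cells (292, 421 and 285 cells) of the same libraries, the genes farthest above both were secreted proteins. Bpifa1 was higher by 8.76 on the log2 scale than in the nearer of these cell types, Bpifb1 by 7.34, Scgb3a1 by 6.61, the iron-binding antimicrobial protein Ltf by 5.92 and Tff2 by 5.01. Fmo2, a flavin monooxygenase of the lung, was higher by 4.17 and the paraoxonase Pon1 by 3.61. Scgb1a1 and the genes of the rule are in this order because the cells were chosen by them. The ciliated cells held Scgb1a1 at 7327, 40301 and 68654 CPM in CONV, CONV AsiDNA and FLASH, and the alveolar type 2 cells, chosen without it, held none. Scgb1a1 was at 0 in 289, 390 and 237 of the ciliated cells, so FLASH had the largest share of ciliated cells with it.

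The libraries were compared on 3197 genes with a sum of at least 20 counts, and a gene was counted as past 2-fold at a log2 ratio of 1. CONV was higher than CONV AsiDNA past 2-fold at 151 genes (4.72%) and lower at 105 (3.28%). Against FLASH, CONV was higher at 375 genes (11.7%) and lower at 300 (9.38%). CONV AsiDNA was higher than FLASH at 190 genes (5.94%) and lower at 194 (6.07%). The medians over all genes were 0.06, 0.07 and 0.02 in these 3 comparisons. Without the 14 FLASH cells of low total, 3023 genes were compared, CONV was higher than FLASH at 432 and lower at 179, and CONV AsiDNA was higher at 257 and lower at 105. Fewer genes were thus highest in FLASH once these cells were left out. These shares over all genes are the background for the counts of list members. The comparisons share libraries and are not independent of each other.

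Of the 25 measured genes of the airway secretory protein list, CONV was higher than CONV AsiDNA at 2 and lower at 1 (median log2 ratio -0.11), higher than FLASH at 6 and lower at 2 (median 0.00), and CONV AsiDNA was higher than FLASH at 3 and lower at 0 (median 0.19). Without the 14 low cells CONV was higher than FLASH at 4 of 25 (16.0%, against 14.3% of all genes), since the log2 ratio dropped below 1 for Scgb3a1 (0.95) and Muc1 (0.95). Without the 10% of cells with the highest totals, the list median of CONV over FLASH was 0.76, against 0.13 over all genes. The largest single differences were in proteins of mucosal defence. Ltf (chr9:111019271-111042767, plus strand) was 1910 CPM in CONV, 1483 CPM in CONV AsiDNA and 207 CPM in FLASH, and it was above 0 in 46, 45 and 12 cells. The 10 cells with the most Ltf held 79.9%, 80.5% and 98.0% of its counts, so its level also rests on few cells. The log2 ratio of Ltf was 3.14 for CONV over FLASH and 2.78 for CONV AsiDNA over FLASH. In the cells with Scgb3a1, which hold most of it, Ltf was 4950 CPM in CONV, 5704 CPM in CONV AsiDNA and 875 CPM in FLASH, so FLASH was lowest within those cells too.

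Retnla (chr16:48842551-48844461, plus strand), a resistin-like secreted protein of type 2 immunity, was 9634 CPM in CONV, 3602 CPM in CONV AsiDNA and 1905 CPM in FLASH. It was above 0 in 69.9% of CONV cells (59.5 to 79.0), 54.3% of CONV AsiDNA cells (46.6 to 61.9) and 42.9% of FLASH cells (32.9 to 53.3). Unlike Ltf, Retnla was at similar levels in CONV cells with Scgb3a1 (8887 CPM) and without it (9967 CPM). Pigr, the receptor that carries immunoglobulin A across the epithelium, was 1729, 755 and 763 CPM. The membrane mucin Muc1 was 513, 417 and 246 CPM. CONV was thus the highest library for Retnla, Pigr, Ltf and Muc1, by more than 2-fold over FLASH for each with all cells included. Bpifa1 was 5211, 5668 and 2054 CPM but came from 8, 20 and 7 cells, and Reg3g, at 1725, 1355 and 2001 CPM, came from 13, 18 and 13 cells.

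Wfdc2, an antiprotease, was 5399 CPM in CONV, 6888 CPM in CONV AsiDNA and 7711 CPM in FLASH, and haptoglobin, encoded by Hp, was 6362, 7559 and 5315 CPM. Sftpb was 1780 and 2297 CPM in CONV and CONV AsiDNA against 1076 CPM in FLASH, while Sftpa1 was 1943, 2731 and 2208 CPM. Of the 8 measured genes of the surfactant and lipid list, CONV AsiDNA was past 2-fold above FLASH at Sftpb alone.

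**Figure D3:**
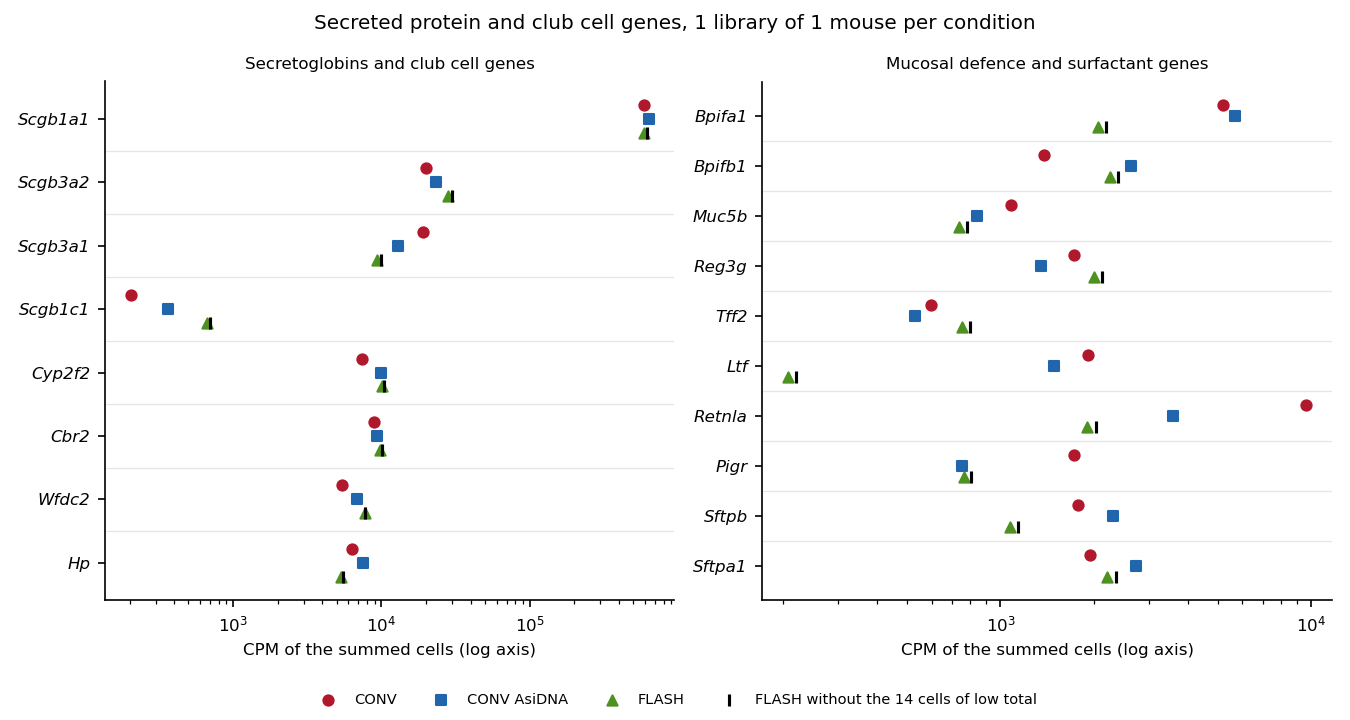
Levels of 18 secreted protein and club cell genes in CPM of the summed cells are plotted on a log axis, with 1 symbol per library and a black bar for FLASH without the 14 cells of low total. The symbols for Scgb1a1, Cbr2 and Cyp2f2 nearly coincide, whereas FLASH sits far to the left for Ltf and CONV far to the right for Retnla.

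FLASH differed from both other libraries in redox and detoxifying enzymes. Of the 27 measured genes of the Nrf2 and antioxidant list, CONV was lower than FLASH past 2-fold at 11 and higher at 0, with a median log2 ratio of -0.87 against 0.07 over all genes. Among these 11, Nqo1, Hmox1, Slc7a11 and Prdx5 passed the minimum sum only through FLASH, so they could only be counted as higher there. CONV AsiDNA was also lower than FLASH at 11 and higher at 0, with a median of -0.89. This count holds the same 4 genes and also Srxn1 and G6pdx, which passed the minimum sum only through FLASH too. Part of both counts thus follows from that filter. Between CONV and CONV AsiDNA the median was -0.05, with 4 genes lower in CONV and 0 higher. Without the 14 FLASH cells of low total, 10 of 25 genes were past 2-fold lower in CONV than in FLASH (median -0.69) and 9 of 25 in CONV AsiDNA (median -0.80). With genes listed at 0 in a library also left out, 6 of 21 and 5 of 21 remained past 2-fold, with medians of -0.62 and -0.57. In this setting Nqo1 (both counts) and Srxn1 and G6pdx (CONV AsiDNA) still passed the minimum sum only through FLASH. Over all 2898 genes of that setting, 4.69% and 2.86% were lower past 2-fold, with medians of 0.17 and 0.15. The same list had medians of 0.16 (CONV over FLASH) and 0.07 (CONV AsiDNA over FLASH) in alveolar type 2 cells and of -0.14 and -0.24 in ciliated cells.

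Nqo1 (chr8:107388225-107403206, minus strand), the quinone reductase that is a standard Nrf2 target, was 12.2 CPM in CONV, 8.88 CPM in CONV AsiDNA and 83.4 CPM in FLASH. It was above 0 in 6 of 93 CONV cells (6.45%, 2.40 to 13.5), 8 of 173 CONV AsiDNA cells (4.62%, 2.02 to 8.91) and 27 of 98 FLASH cells (27.6%, 19.0 to 37.5). Only 1 of the 14 low cells held it, and without them FLASH was at 84.3 CPM. The share above 0 in endothelial cells was 6.70%, 3.43% and 3.66%, so FLASH was not higher there. In ciliated cells Nqo1 was 35.8, 16.2 and 52.3 CPM, highest in FLASH and past 2-fold above CONV AsiDNA, and it was 35.5, 17.3 and 49.8 CPM in the ciliated cells with Scgb1a1 at 0. After thinning to 1000 counts the Nqo1 shares fell to 1.08%, 0% and 6.12%, which is near the level of single counts.

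Gclm (chr3:122245557-122270732, plus strand), the modifier subunit of the enzyme that limits glutathione synthesis, was 28.5 CPM in CONV, 24.4 CPM in CONV AsiDNA and 148 CPM in FLASH. It was above 0 in 12.9% (6.85 to 21.5), 12.1% (7.67 to 18.0) and 46.9% (36.8 to 57.3) of cells. In endothelial cells the Gclm shares were 25.1%, 27.2% and 30.0%, which is a smaller spread between libraries. The catalytic subunit Gclc was 330, 262 and 494 CPM, less than 2-fold apart. In FLASH, Gclm was above 0 in 9 of 17 cells with Scgb3a1 and in 37 of 81 cells without it, so both kinds of secretory cell held it.

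Thioredoxin and the peroxiredoxins followed with another order. Txn1 was 28.5 CPM in CONV, 124 CPM in CONV AsiDNA and 283 CPM in FLASH, and was above 0 in 2, 65 and 64 cells. CONV was also low for Txn1 in endothelial cells, at 26.3% of cells against 59.5% and 59.3%, so a low Txn1 was not particular to the airway cells of that library. Prdx1, a peroxiredoxin, was 224, 380 and 756 CPM, and Prdx6, a peroxiredoxin with phospholipase activity, was 1387, 1870 and 2934 CPM. Txnrd1, thioredoxin reductase, was 59.1, 47.7 and 108 CPM, and Srxn1, which restores oxidised peroxiredoxins, was 20.4, 9.99 and 44.7 CPM. For Txnrd1, Srxn1 and the NADPH-producing enzyme G6pdx (12.2, 7.77 and 30.5 CPM), FLASH was past 2-fold above CONV AsiDNA but not above CONV. Without the 14 low cells Txnrd1 was at 95.1 CPM in FLASH, which is less than 2-fold above CONV AsiDNA. The superoxide dismutase Sod1 was 246, 251 and 240 CPM and Nfe2l2 itself was 114, 189 and 110 CPM, so neither was higher in FLASH.

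Several genes of the list were listed at 0 in all CONV cells. Hmox1, the inducible haem oxygenase, was listed at 0 in CONV, at 4.44 CPM in CONV AsiDNA and at 61.0 CPM in FLASH. Slc7a11, the cystine transporter that feeds glutathione synthesis, was listed at 0, at 5.55 and at 73.2 CPM. The ferritin chains Ftl1 (0, 493 and 3272 CPM) and Fth1 (0, 473 and 2599 CPM) had the highest share of cells above 0 of all genes that were listed at 0 in a library. Ferritin is made by nearly all cells, and Ftl1 was also listed at 0 in the CONV alveolar type 2 cells, at 446 and 856 CPM in the other libraries, so no fold is given. In ciliated cells Ftl1 was 1210, 2318 and 4359 CPM, in the same order.

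The 40 measured genes of xenobiotic and aldehyde metabolism showed a similar order. CONV was lower than FLASH past 2-fold at 11 and higher at 3 (median -0.55). CONV AsiDNA was lower than FLASH at 9 and higher at 1 (median -0.41). Of all genes, 9.38% (CONV) and 6.07% (CONV AsiDNA) were lower than FLASH, and 11.7% and 5.94% were higher. Aldh3b1, in both counts of lower genes, passed the minimum sum only through FLASH. CONV and CONV AsiDNA differed at 2 genes, both higher in CONV (median -0.07). Without the 14 low cells the counts against FLASH were 9 lower and 4 higher of 38 for CONV and 7 lower and 1 higher for CONV AsiDNA. The shares over all genes were then 5.92% lower and 14.3% higher for CONV, and 3.47% and 8.50% for CONV AsiDNA. In alveolar type 2 cells the medians of the list were 0.38 and 0.10, and in ciliated cells -0.30 and -0.30. In ciliated cells CONV was lower than FLASH at 8 of 41 genes of the list and higher at 0 (19.5% lower, against 0.860% of all genes there), and CONV AsiDNA was lower at 3 and higher at 0. In the ciliated cells with Scgb1a1 at 0, CONV was lower at 1 of 37 and CONV AsiDNA at 0 of 37 (medians -0.23 and -0.15). Ces1f was 2.24, 5.23 and 28.1 CPM in all ciliated cells and 2.27, 4.60 and 10.3 CPM in those with Scgb1a1 at 0. Gsta3 was 77.6, 109.8 and 194 CPM in all ciliated cells and 72.6, 76.5 and 90.3 CPM in those with Scgb1a1 at 0. The difference of both genes from FLASH in ciliated cells was thus under 2-fold on CPM plus 10 once cells with Scgb1a1 were left out.

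Carbonyl reductases, carboxylesterases and glutathione transferases made up most of these genes. Cbr3 (chr16:93683215-93690990, plus strand), a carbonyl reductase, was 67.2 CPM in CONV, 61.0 CPM in CONV AsiDNA and 331 CPM in FLASH, and was above 0 in 25.8% (17.3 to 35.9), 26.6% (20.2 to 33.8) and 67.3% (57.1 to 76.5) of cells. After thinning to 1000 counts the Cbr3 shares were 6.45%, 7.51% and 25.5%. Its neighbour in function Cbr1 was 97.8, 73.2 and 236 CPM. Both genes were thus past 2-fold higher in FLASH than in either other library, with and without the 14 low cells.

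Ces1f, a carboxylesterase, was 12.2, 34.4 and 134 CPM and was above 0 in 5, 17 and 48 cells. Ces1g (chr8:93302369-93337308, minus strand), a related carboxylesterase that was not on the list, was the gene farthest above both other libraries in FLASH, at 205 CPM against 6.11 CPM in CONV and 7.77 CPM in CONV AsiDNA. Its log2 ratio was -3.74 for CONV over FLASH and -3.60 for CONV AsiDNA over FLASH. Ces1g passed the minimum sum only through FLASH, so its place in this order follows in part from that filter. Ces1g was above 0 in 25 FLASH cells, none of them among the 14 low cells, and the 10 highest cells held 68.3% of its counts. Ces1f and Ces1g belong to a cluster of related carboxylesterase genes, so reads could have been divided between them.

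Among glutathione transferases, Gsta2 was 30.6, 44.4 and 159 CPM, Gsta3 was 409, 529 and 1043 CPM and Gstm1 was 348, 506 and 1407 CPM in CONV, CONV AsiDNA and FLASH. Gstm1 was also ordered this way in ciliated cells, at 1612, 1775 and 2407 CPM, and was listed at 0 in alveolar type 2 cells. The microsomal transferase Mgst1 was 1975, 1982 and 3030 CPM, below 2-fold. Aldh1a1, the retinaldehyde dehydrogenase of club and ciliated cells, was 784, 1553 and 2381 CPM, and the electron donor Cyb5a was 468, 567 and 1015 CPM. Other enzymes ran against this order: Cyp2b10, an inducible cytochrome P450, was 169, 74.4 and 61.0 CPM, while Cyp4b1 was 434, 434 and 317 CPM and Fmo2 was 674, 550 and 630 CPM. Cyp2f2, the defining cytochrome P450, was within 2-fold as given above.

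Some enzymes were in the FLASH count only through the 14 low cells. Cyp2s1, a cytochrome P450 that is among the ciliated markers, was 63.0 CPM in FLASH with those cells and 13.0 CPM without them, against 8.15 CPM in CONV. Aldh3b1 was 59.0 CPM with them and 2.16 CPM without, and Cyp2a5 was 128 CPM with them and 43.2 CPM without. In ciliated cells Cyp2s1 was at 1650, 1669 and 1603 CPM.

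**Figure D4:**
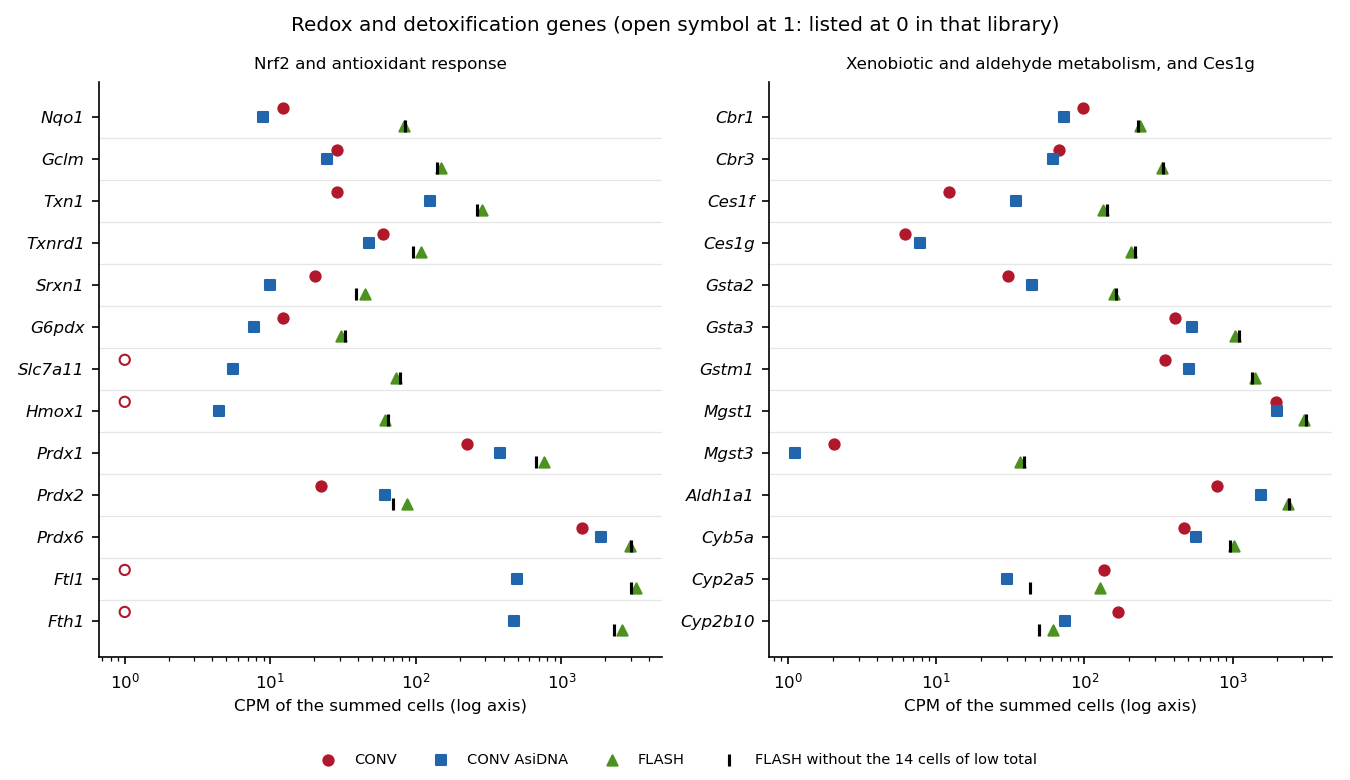
CPM of the summed cells is plotted on a log axis for 13 genes of the Nrf2 and antioxidant list (left) and for 12 detoxifying enzymes and Ces1g (right), with 1 symbol per library, a black bar for FLASH without the 14 cells of low total and open symbols at 1 for genes listed at 0. FLASH lies to the right of both other libraries at all but Cyp2a5 and Cyp2b10, and the black bar moves away from the FLASH symbol mainly at Cyp2a5. The genes shown were picked, and all 13 on the left were past 2-fold lower than FLASH in CONV or CONV AsiDNA. List members that were not highest in FLASH, such as Sod1, Nfe2l2, Cyp4b1 and Fmo2, are not plotted.

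The promoters of the list were searched for TGACNNNGC, the core that Nrf2 and its partners bind, on both strands of windows reaching from 250 bases before to 50 bases after the gene start (RefSeq, GRCm38.p6). Its first letters also begin the motif TGACTCA of the AP-1 factors, so the searches overlap. The motif was in the window of 8 of the 23 measured list genes with a promoter entry, which were G6pdx, Gclm, Me1, Nfe2l2, Prdx1, Sod1, Srxn1 and Txnrd1. It was in 449 of the 2545 measured genes with an entry (17.6%) and in 12.4% of all 32851 promoters. Sod1, which was level between the libraries, held the motif, and Nqo1, Cbr3 and Ces1g did not hold these letters in this window. The bases before the start are shown for 3 enzymes of glutathione synthesis and conjugation that were highest in FLASH, Mgst1 by less than 2-fold. They were picked because they hold the motif, which is in capitals. It begins 134 bases before the start of Gclm (chr3:122245307-122245556, plus strand), 121 bases before that of Gsta3 (chr1:21240335-21240584, plus strand) and 56 bases before that of Mgst1 (chr6:138140277-138140526, plus strand), and it is read on the opposite strand in Gclm and Mgst1. A further promoter entry of Mgst1 (chr6:138141337-138141636) did not hold the motif.
Gclm: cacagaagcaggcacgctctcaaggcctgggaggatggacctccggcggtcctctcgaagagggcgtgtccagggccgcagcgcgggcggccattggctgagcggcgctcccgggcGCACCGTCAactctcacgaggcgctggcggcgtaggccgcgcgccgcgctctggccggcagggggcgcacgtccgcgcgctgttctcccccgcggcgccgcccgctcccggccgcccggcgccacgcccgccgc
Gsta3: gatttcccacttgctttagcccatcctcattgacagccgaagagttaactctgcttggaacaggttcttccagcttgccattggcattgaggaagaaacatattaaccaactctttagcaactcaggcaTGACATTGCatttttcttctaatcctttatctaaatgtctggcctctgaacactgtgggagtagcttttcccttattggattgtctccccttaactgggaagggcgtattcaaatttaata
Mgst1: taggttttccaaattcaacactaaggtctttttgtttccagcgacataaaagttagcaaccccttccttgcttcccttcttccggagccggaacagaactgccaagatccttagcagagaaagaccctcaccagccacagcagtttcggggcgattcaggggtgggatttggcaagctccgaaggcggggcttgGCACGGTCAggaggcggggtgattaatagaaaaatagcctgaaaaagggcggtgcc

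With all its measured genes counted, the acute phase and innate defence list was higher in CONV. Of its 13 measured genes, CONV was past 2-fold above CONV AsiDNA at 7 and below at 0 (median 1.10), and above FLASH at 5 and below at 1 (median 0.79). Lrg1 and Nfkbiz are in both counts, and they passed the minimum sum only through CONV, so they could only be counted as higher there. CONV AsiDNA was above FLASH at 4 and below at 1 (median 0.24). Without the 14 low cells CONV was above FLASH at 7 and below at 1 (median 1.33), and CONV AsiDNA was above at 4 and below at 0 (median 0.17). Only 9 genes of the list were above 0 in all 3 libraries, and over these the medians were 0.022, 0.43 and 0.24, against 0.06, 0.08 and 0.03 over all genes. Of these 9, CONV was above CONV AsiDNA at 3 and below at 0, against 4.12% and 2.06% of all genes. It was above FLASH at 1 and below at 1 (11.1% each), which is near the 10.4% and 7.68% of all genes. CONV AsiDNA was above FLASH at 2 and below at 1. Alveolar type 2 cells had list medians of 0.64, 1.09 and 0.20 and ciliated cells of 1.12, 1.15 and 0.00, so the order was not confined to the secretory cells.

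Lcn2 (chr2:32384633-32388252, minus strand), the siderophore-binding lipocalin of neutrophils and inflamed epithelium, was 977 CPM in CONV, 62.1 CPM in CONV AsiDNA and listed at 0 in FLASH. It was above 0 in 41 of 93 CONV cells (44.1%, 33.8 to 54.8), in 7 of 173 CONV AsiDNA cells (4.05%, 1.64 to 8.16) and in 0 of 98 FLASH cells. In alveolar type 2 cells Lcn2 was 13831, 5041 and 3816 CPM, in the same order, and in endothelial cells it was above 0 in 0%, 1.83% and 0% of cells. Socs3 (chr11:117966079-117970047, minus strand), the feedback inhibitor of cytokine signalling through Stat3, was 173 and 41.1 CPM and listed at 0 in FLASH, in 41, 13 and 0 cells. In endothelial cells Socs3 was above 0 in 38.0%, 13.0% and 18.8% of cells. CONV was thus also the highest library for Lcn2 in alveolar type 2 cells and for Socs3 in endothelial cells.

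Lrg1, a glycoprotein of the acute phase, was 145 CPM in CONV and Nfkbiz, a nuclear regulator of NF-kB targets, was 57.0 CPM in CONV, and both were listed at 0 in CONV AsiDNA and FLASH. Nfkbia, the inhibitor of NF-kB, was 232, 103 and 26.4 CPM. Of the complement genes, Cfb was 52.95, 13.3 and 26.4 CPM, past 2-fold between CONV and CONV AsiDNA, and C3 was 253, 249 and 185 CPM, less than 2-fold apart. Ceruloplasmin, encoded by Cp, was 1533, 1564 and 1322 CPM. Cebpd, a transcription factor of the acute phase, was 350, 133 and 40.7 CPM and was above 0 in 65.6%, 31.8% and 15.3% of cells. Its relative Cebpb ran the opposite way at 42.8, 101 and 175 CPM.

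Of the 25 measured immediate early and heat shock genes, CONV was past 2-fold above CONV AsiDNA at 5 and below at 6. It was above FLASH at 4 and below at 6. Of all genes, 4.72% were above and 3.28% below CONV AsiDNA, and 11.7% and 9.38% were above and below FLASH. Without the 14 low cells, CONV was above FLASH at 5 and below at 6, against 14.3% and 5.92% of all genes. Among the genes past 2-fold, those lower in CONV were chaperone genes and those higher in CONV were immediate early genes. The chaperone Hspa8 (chr9:40800984-40810087, plus strand) was 81.5 CPM in CONV against 496 CPM in CONV AsiDNA and 458 CPM in FLASH, in 18, 120 and 69 cells. Hsp90aa1 was 44.8, 193 and 248 CPM, Dnaja1 was 40.7, 183 and 216 CPM, and the inducible Hspa1b was 4.07, 111 and 46.8 CPM. CONV was also the lowest library for Hspa8 (585, 1447 and 1286 CPM) and Hsp90aa1 (2242, 5568 and 5108 CPM) in ciliated cells. Alveolar type 2 cells did not share this pattern. Of 27 genes of the list measured there, CONV was above CONV AsiDNA at 5 and below at 2, Btg1 and Hspa1b. Against FLASH it was above at 6, which included the chaperone gene Hspb1, and below at 0.

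Atf3, a stress-induced transcription factor, was 819 CPM in CONV, 282 CPM in CONV AsiDNA and 386 CPM in FLASH. Klf6 was 758, 336 and 350 CPM, and the phosphatase Dusp1 was 346, 32.2 and 116 CPM. Fos (1721, 1122 and 1124 CPM) and Jun (1947, 1474 and 1519 CPM) were less than 2-fold apart. Such genes respond to tissue dissociation within minutes, and the part of the preparation in these differences was not tested.

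Of 16 measured genes of epithelial junctions and keratins, 1 was past 2-fold in each comparison, and of 4 measured Notch pathway genes only Jag1 was, lower in CONV than in FLASH (log2 ratio -1.18, and -0.64 without the 14 low cells). Of 22 measured airway transcription factors, CONV was above CONV AsiDNA at 1 and below at 3, and above FLASH at 2 and below at 2, or at 4 and 2 without the 14 low cells. Nkx2-1, the lineage factor of lung epithelium, was 116, 135 and 95.6 CPM, Foxa2 was 22.4, 62.2 and 75.2 CPM and Sox2, the factor of the conducting airways, was 34.6, 86.6 and 63.0 CPM. Of 14 measured p53 targets, CONV was above CONV AsiDNA at 3, above FLASH at 4 (3 without the 14 low cells) and below either at 0. Over all genes the shares higher in CONV were 4.72% and 11.7%, and 14.3% against FLASH without the 14 low cells. Cdkn1a, the p53-induced inhibitor of the cell cycle, was 71.3, 26.6 and 18.3 CPM in only 7, 5 and 5 cells, and Trp53inp1 was 65.2, 16.7 and 8.13 CPM in 14, 15 and 2 cells. Trp53inp1, which is in both counts, passed the minimum sum only with CONV, so its place in them follows in part from that filter.

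Of 18 measured genes of the injury-associated epithelial list, CONV was above CONV AsiDNA at 6 and below at 0 (median 0.56), against 4.72% and 3.28% of all genes. It was above FLASH at 4 and below at 1, Anxa2 (median 0.61, against 11.7% and 9.38% of all genes), and CONV AsiDNA was above FLASH at 3 and below at 3 (median 0.07). Without the 14 low cells these counts were 5 above and 1 below of 17 for CONV and 3 above and 1 below for CONV AsiDNA. Ccn1, a matricellular protein, was 232, 62.1 and 10.2 CPM, and the growth factor gene Hbegf was 214, 77.7 and 102 CPM. Among 10 measured chemokines and cytokines, Vegfa was 99.8 and 40.0 CPM and listed at 0 in FLASH, and the neutrophil chemokine Cxcl5 was 271, 97.7 and 307 CPM. For Cxcl5 the direction of CONV AsiDNA over FLASH reversed, to a log2 ratio of 1.71, without the 10% of cells with the highest totals. Of 17 measured ion and water transport genes, CONV was above FLASH at 3 and below at 0 (median 0.33), against 11.7% and 9.38% of all genes. Without the 14 low cells it was above FLASH at 4, against 14.3% of all genes. The sodium channel subunit Scnn1a was at 269, 158 and 102 CPM and the chloride channel protein Clic3 at 293, 162 and 132 CPM. The subunit Scnn1g was highest in CONV AsiDNA at 95.4 CPM against 32.6 CPM in CONV and 44.7 CPM in FLASH.

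In the 11 measured interferon-stimulated genes the medians were 0.19, 0.55 and 0.18. There were 0 higher and 1 lower for CONV over CONV AsiDNA, and 3 higher and 1 lower for CONV over FLASH. For CONV AsiDNA over FLASH 2 were higher and 0 lower, or 3 higher without the 14 low cells. Of all genes, 4.72%, 11.7% and 5.94% were higher and 3.28%, 9.38% and 6.07% lower in these comparisons, with all cells included. Of the 8 measured clock genes, CONV was above CONV AsiDNA at 3 and above FLASH at 4 (medians 0.52 and 0.89). Over all genes these shares were 4.72% and 11.7%. Bhlhe40 was at 61.1, 2.22 and 10.2 CPM. Bhlhe40 and Per1, in both counts, and Nr1d2, in the count against FLASH, passed the minimum sum only with CONV. Part of both counts thus follows from that filter. The hour at which lungs were taken is not known here. None of the 11 genes of class II presentation reached the minimum sum, and only 4 of 20 class I genes and 3 of 26 cell cycle genes did. Mki67, the marker of dividing cells, was above 0 in 1, 0 and 1 cells, so dividing secretory cells were too few to compare. Of the 3 cell cycle genes, H2afz, a histone variant, was 91.6, 42.2 and 219.6 CPM in 18, 14 and 42 cells. Stmn1, a regulator of microtubules, was above 0 in 1, 5 and 8 cells, and Hmgb2, a chromatin protein, was above 0 in 1, 0 and 3 cells. The medians of the 3 genes were 0.27, -2.25 and -2.14. Stmn1 and Hmgb2 reached the minimum sum only through FLASH, so their ratios against FLASH follow from that filter. H2afz passed it without FLASH and was past 2-fold higher in FLASH than in both other libraries. With a minimum sum of 50 the median of CONV over FLASH was -1.18. Of the 4 class I genes, H2-K1, Calr and Canx were listed at 0 in CONV, which gave medians of -1.98 (CONV over CONV AsiDNA) and -2.28 (CONV over FLASH) against -0.06 for CONV AsiDNA over FLASH. All H2-K1 counts of FLASH lay in the 14 low cells, and without them the CONV over FLASH median was -1.04 and H2-K1 was past 2-fold higher in CONV AsiDNA than in FLASH (2.32).

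**Figure D5:**
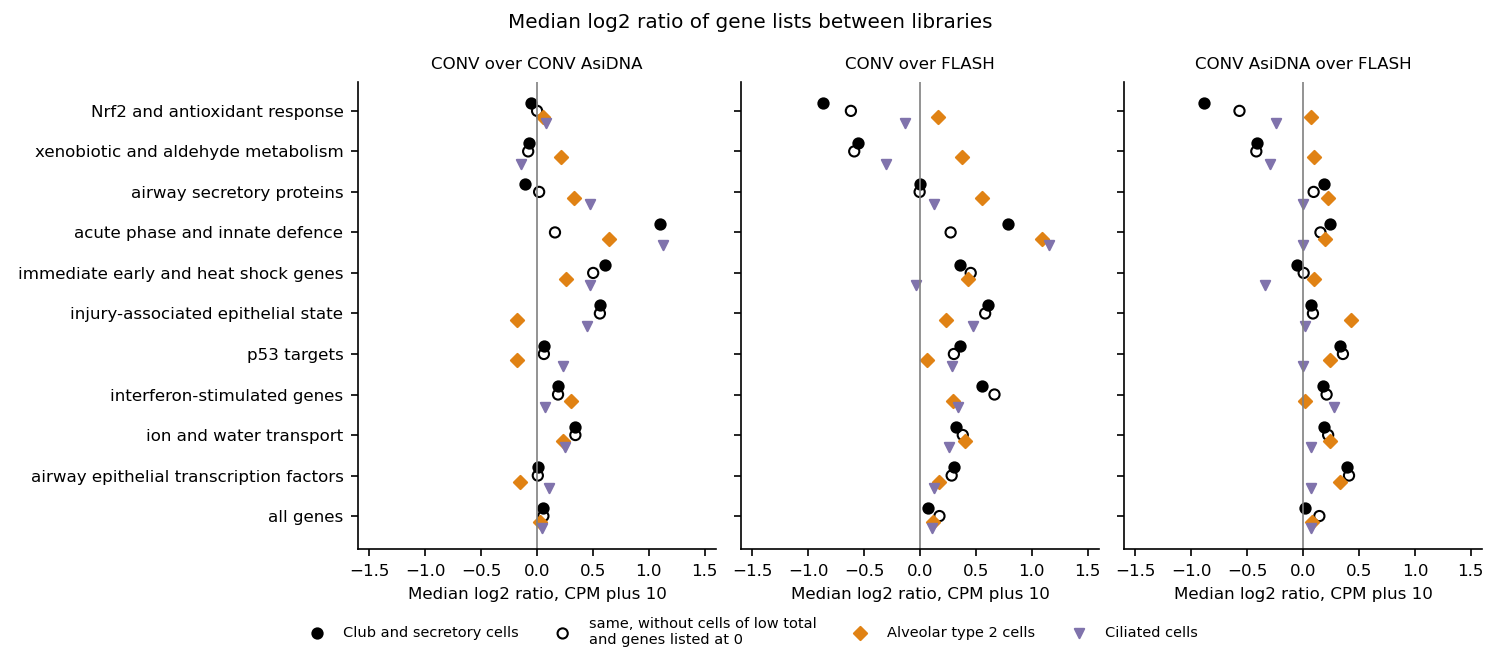
Median log2 ratios (CPM plus 10) of 10 gene lists and of all genes are plotted for the 3 pairs of libraries in club and secretory cells (filled black), in the same cells without those of low total and without genes listed at 0 in a library (open), in alveolar type 2 cells (diamonds) and in ciliated cells (triangles). The Nrf2 and antioxidant list reaches -0.87 and -0.89 against FLASH in the club and secretory cells, and the acute phase list drops from 1.10 to 0.16 for CONV over CONV AsiDNA in the open symbols.

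By the rule for the genes farthest from both other libraries, CONV was highest for Rbm24, Pglyrp1, Bhlhe40, Eppk1, Ccn1 and Icam1. Of these, Rbm24, Bhlhe40 and Eppk1 passed the minimum sum only through CONV, so their places follow in part from that filter. Pglyrp1, a bactericidal protein that binds peptidoglycan, was 356 CPM in CONV against 86.6 and 75.2 CPM, and the adhesion molecule Icam1 was 93.7 CPM against 23.3 CPM in CONV AsiDNA and 2.03 CPM in FLASH. CONV AsiDNA was lowest for Tmsb4x, a regulator of actin (1043, 133 and 807 CPM) and for Txnip, the inhibitor of thioredoxin (322, 44.4 and 185 CPM, the last being 110.2 CPM without the 14 low cells). FLASH was lowest for Ltf, for the scaffold protein gene Ahnak (220, 193 and 40.7 CPM) and for Tead1, the DNA-binding partner of Yap (77.4, 69.9 and 10.2 CPM). Beside Ces1g, Cbr3 and Nqo1, FLASH was highest for Elof1 and Gabarap. Ces1g, Nqo1, Elof1 and Gabarap passed the minimum sum only through FLASH, so their places follow in part from that filter. The autophagy gene Gabarap was 146 CPM with the 14 low cells and 92.9 CPM without them, against 16.3 and 12.2 CPM, whereas Elof1 dropped from 69.1 to 2.16 CPM without them.

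A value of 0 in every secretory cell of at least 1 library was found for 137 of the 3197 genes. This held for 68 genes of the CONV library, 31 of the CONV AsiDNA library and 58 of the FLASH library. They included genes that every cell uses. Actb was listed at 0 in CONV and CONV AsiDNA and stood at 523 CPM in FLASH, and mt-Co2 was listed at 0 in both and stood at 2151 CPM in FLASH. A zero for such a gene is a value of the deposited table and is not read as absence of expression.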

How the data were processed

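Single-cell suspensions of whole lung were sequenced by the authors with 10x Genomics 3' chemistry, and Cell Ranger 6.0.0 and the build mm10 are named in the submitters' processing notes. The authors deposited 1 table of 22954 genes per library. Its values, on the natural log scale as deposited, are ln(1 + x) with x whole to within 1e-06, and x was used here as the count. Genes used by every cell are at 0 in whole libraries, so x is called an adjusted count, and how it was adjusted before deposit is not stated in what was read here. The 4 tables of the whole series were not used: 3 hold the authors' own comparisons, and the other holds 12 count columns whose names match no sample analysed here and gene identifiers other than those of these libraries.

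Counts of the cells of the rule were summed per library and given as CPM. Log2 ratios used CPM plus 10 and genes with a sum of at least 20, and past 2-fold is a rule of size. Shares carry exact 95% Clopper-Pearson intervals (scipy 1.17.1), which cover counting error only, and shares were repeated with each cell thinned to 1000 and 500 counts. No doublet caller was run, and leaving out the 10% of cells with the highest totals was an alternative. The cells of the rule and the 18 gene lists were chosen with earlier results of these data known. Named were the genes of the rule, list members past 2-fold or among the 4 highest of a list, the 6 genes farthest on each side of both other libraries, the 6 most widespread of those listed at 0, the 20 with the highest level, the 15 farthest above alveolar type 2 and ciliated cells, and genes split by Scgb3a1. Not every gene that this rule named is printed here. Actb, C3, Cyp4b1, Gclc, Me1, Mki67, Nfe2l2 and Sod1 are outside it and were named after their values were seen. Alveolar type 2 cells had Sftpc and at least 1 of Lamp3, Slc34a2 and Abca3 above 0 and Scgb1a1 at 0, ciliated cells had at least 4 of the 5 ciliated genes above 0, endothelial cells had Pecam1 and Cdh5, and B cells had Cd79a and Ms4a1. Gene positions are from GENCODE on GRCm38. The calculation was tested on simulated data, in which most changes of just 2-fold stayed under that limit.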

Additional observations from a re-analysis of the deposited data

How the results depend on the processing

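No paired analysis was possible because each condition had 1 library, and for the same reason no replicate could be left out. Settings with cells under 3000 counts left out, with CPM without Scgb1a1, with only genes above 0 in all 3 libraries and with ciliated cells limited to those with Scgb1a1 at 0 were chosen after seeing the data. In every case the cause of a change was not tested. With a prior of 1, genes higher and lower numbered 307 and 300 (CONV over CONV AsiDNA), then 649 and 471 (CONV over FLASH), then 475 and 337 for CONV AsiDNA over FLASH, the class I medians of CONV over the other 2 libraries were -4.91 and -5.31, and the cell cycle medians were 1.10, -3.51 and -3.15. With a minimum sum of 50, fewer genes were compared, the counts were 74 and 48, 133 and 152, and 60 and 99, and the cell cycle medians of CONV over the others were 0.96 and -1.18. With each cell weighted equally, CONV AsiDNA was lower than FLASH at 331 genes and the class I median of CONV over FLASH was -3.16. With fewer than 2 ciliated genes allowed, CONV and CONV AsiDNA were lower than FLASH at 188 and 121 genes and the class I median of CONV over FLASH was -1.14. With cells under 3000 counts left out, these values were 179, 105 and -1.04. Without the cells of highest totals the secretory protein median of CONV over FLASH was 0.76. With CPM without Scgb1a1, CONV was lower than CONV AsiDNA at 281 genes, CONV AsiDNA was higher than FLASH at 460, the class I medians were -3.17 and -3.40 and the cell cycle median of CONV over FLASH was -2.92. With only genes above 0 in all libraries, CONV was lower than CONV AsiDNA at 63 genes, its acute phase median was 0.022 and the class I medians were -0.70 and -0.61. The shares among Epcam cells were 8.60%, 13.1% and 8.10%, and without the lineage exclusion FLASH was 2.14%. Of named genes, S100a6 reversed for CONV AsiDNA over FLASH (-0.30 with cells weighted equally, -1.16 without the highest totals), and without the highest totals Agr2 reversed for CONV over FLASH (0.85) and Cxcl5 for CONV AsiDNA over FLASH (1.71).

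The share of higher genes among those past 2-fold, 59.0%, 55.6% and 49.5% in the 3 comparisons, became 48.5%, 62.0% and 64.7% with scaling by the median gene ratio, which moved the medians of all genes to 0.00, 0.15 and 0.16. It became 38.4%, 53.7% and 67.5% with CPM without Scgb1a1, 58.9%, 70.7% and 71.0% without cells under 3000 counts, 59.1%, 69.3% and 67.6% with fewer than 2 ciliated genes and 60.7%, 46.7% and 37.7% with a minimum sum of 50. Over all settings, 544 medians of gene lists moved by less than 1.5-fold and 17 by more. Of the log2 ratios of named genes, 2337 moved by less than 1.5-fold, 258 moved by more, 58 dropped under 2-fold and 4 reversed. With 93 to 173 cells a library, genes above 0 in a few cells cannot be ordered, and the Nqo1 and Ces1g shares after thinning rest on single counts.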

Other observations

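Cells that met the rule but for the limit on ciliated genes, with 4 or 5 of the 5 above 0 and no lineage gene, numbered 3 in the CONV library, 31 in the CONV AsiDNA library and 48 in the FLASH library. Their median Scgb1a1 counts were 3317, 2690 and 1737, and their median totals were 5826, 5711 and 5555 counts. Tmem212, a gene of motile cilia, was above 0 in all 3, all 31 and 44 of these cells.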
